A study of Mus with 15 samples.

Results

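The replication-dependent histone genes are the clustered genes that encode linker histone H1 and the core histones H2A, H2B, H3 and H4 used to package newly copied DNA. Members were chosen by name: every gene with an older symbol beginning Hist1h to Hist4h, or the matching current symbol of the H1f, H2ac, H2bc, H3c and H4c series. Of 55573 genes in the count table, 70 were members. They were 6 H1, 20 H2A, 19 H2B, 12 H3 and 13 H4 genes. In GRCm38, 56 of them lie on chromosome 13 in a pair of runs, 24 in chr13:21715763-22043676 and 32 in chr13:23531050-23934851. A further 10 lie on chromosome 3 (chr3:96219865-96270132), 3 on chromosome 11 and 1 on chromosome 6.

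Cells make most histone protein while they copy their DNA, and the messages of these genes accumulate in S phase and are destroyed when replication ends. Most of the messages end in a stem-loop in place of a poly(A) tail, and the stem-loop binding protein encoded by Slbp guides their processing and translation. Thymocytes divide in bursts during development and are mostly non-dividing by the time they mature as CD4 single-positive cells.

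The libraries were bulk RNA from sorted mouse thymocytes, made with a stranded total RNA kit, so messages without a poly(A) tail could be captured. All cells came from thymus of 6-week-old female C57Bl/6 x Foxp3-GFP mice, a strain in which green fluorescent protein reports Foxp3, after magnetic depletion of CD8 cells. All gates were live TCRb+ CD4+ CD8- CD73- cells, and 3 libraries, numbered 40, 42 and 43, were made from each of 5 gates. The 5 gates were Bst2+ cells (with CD25, FOXP3 or both), mature Tregs (Bst2- CD25+ Foxp3+), CD25+ Treg progenitors (Bst2- CD25+ Foxp3-), FOXP3lo Treg progenitors (Bst2- CD25- with low Foxp3) and conventional CD4SP cells (Bst2- CD25- Foxp3-). The series' design text calls the samples biological replicates of 1 experiment without saying whether each is 1 mouse or a pool, so p-values measure the spread between these samples.

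Assigned read pairs ranged from 10816064 to 23758157 per library, and the members took 0.0562% to 0.254% of them. Foxp3 averaged 25.7 CPM (counts scaled to the effective library size) in Bst2+ cells, 597 CPM in mature Tregs, 3.2 CPM in CD25+ progenitors, 290 CPM in FOXP3lo progenitors and 0.95 CPM in conventional cells. Il2ra, which encodes CD25, averaged 243 CPM, 1150 CPM, 288.5 CPM, 107 CPM and 9.06 CPM in the same gates. FOXP3lo progenitors, sorted as CD25-, thus had more Il2ra message than conventional cells (log2 fold change 3.55, SE 0.19, edgeR adjusted p = 3.06e-09), and CD25+ progenitors, sorted as Foxp3-, had more Foxp3 message (log2 fold change 1.81, SE 0.56, edgeR adjusted p = 0.0428). The Bst2+ libraries stood apart. Their biological coefficient of variation was 0.948, against 0.15 to 0.24 within the other gates. A list of 12 macrophage and dendritic cell markers summed to 611 to 1038 CPM in the Bst2+ libraries and to 1.6 to 8.2 CPM in the other 12. Counts of called genes are therefore also given without these libraries. In bulk RNA, fewer cells in S phase and less histone message per cell cannot be told apart.

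Mean histone message was highest in Bst2+ cells and lowest in mature Tregs and FOXP3lo progenitors. The members summed to 1640, 2650 and 1354 CPM in Bst2+ replicates 40, 42 and 43. The sums were 589, 643 and 581 CPM in mature Tregs and 921, 765 and 943 CPM in CD25+ progenitors. They were 638, 629 and 659 CPM in FOXP3lo progenitors and 879, 1354 and 1382 CPM in conventional cells. Mature Tregs and FOXP3lo progenitors overlapped with each other and lay below every library of the other 3 gates. Bst2+ replicate 43 lay within the range of the conventional libraries. CD25+ progenitors lay between, and their highest library exceeded the lowest conventional library, replicate 40.

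**Figure D1:**
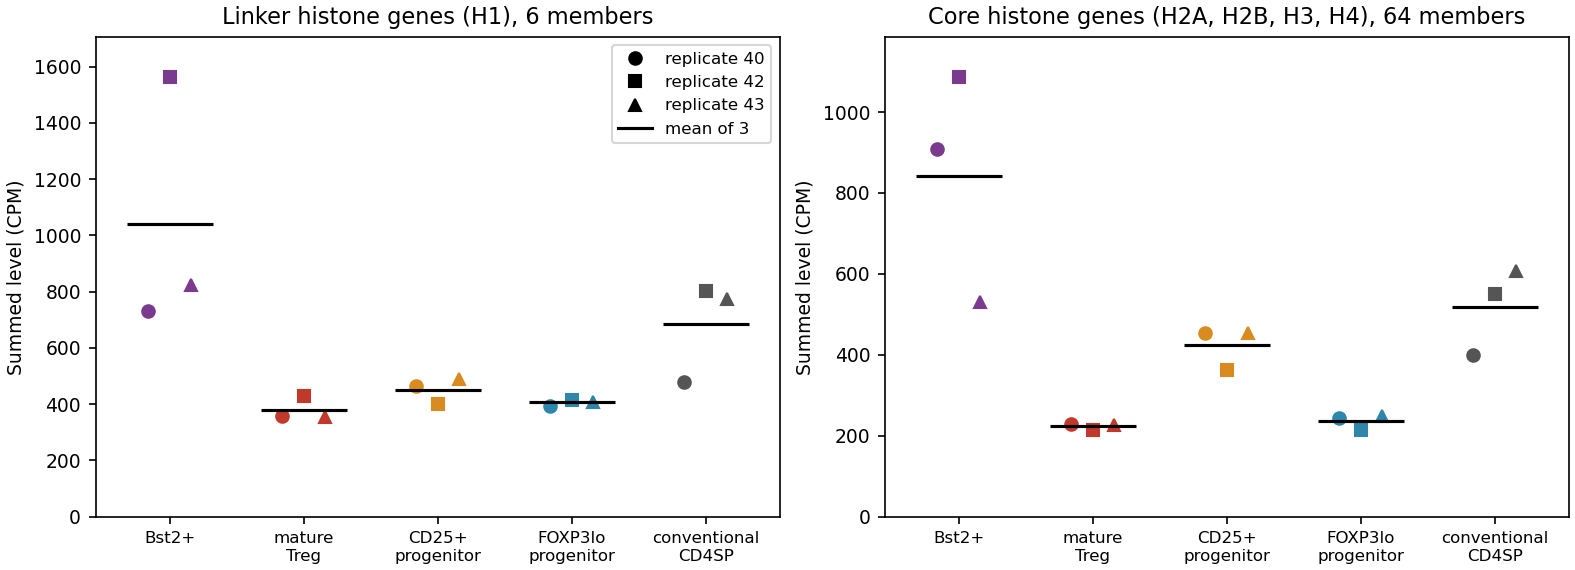
Summed CPM of the 6 linker and 64 core histone genes in each library (points, by replicate number) with the mean of 3 libraries (line), by gate. Core histone sums of mature Tregs and FOXP3lo progenitors sit between 214 and 250 CPM, below all libraries of the other 3 gates.

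The core and linker genes differed in their levels across gates. Core genes averaged 842 ± 284 CPM in Bst2+ cells, 224 ± 8.5 CPM in mature Tregs, 424 ± 52.6 CPM in CD25+ progenitors, 236 ± 19 CPM in FOXP3lo progenitors and 519 ± 108 CPM in conventional cells (SD, n = 3 each). Linker genes averaged 1040 ± 456 CPM, 380 ± 41.9 CPM, 452 ± 45.3 CPM, 406 ± 11 CPM and 686 ± 179 CPM in the same 5 gates in that order (SD, n = 3 each). Linker genes held 62.8% of histone CPM in mature Tregs and 63.3% in FOXP3lo progenitors, against 51.6% in CD25+ progenitors and 56.7% in conventional cells. They held 54.8% in Bst2+ cells, where single libraries ran from 44.6% to 60.9%. The highest Bst2+ library was above the lowest mature Treg library, at 60.8%. These are descriptions with no test.

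Among the linker genes, H1f5 and H1f1 followed the gates most closely and H1f2 least; H1f5 and H1f1 were singled out after their values were seen. All encode H1 proteins, which bind DNA between nucleosomes. H1f5 (743 exonic bases, chr13:21779883-21780625) had 100.1, 276 and 119 CPM in Bst2+ cells, and 14.9, 14.1 and 13.9 CPM in mature Tregs. It had 66.2, 45.5 and 56.3 CPM in CD25+ progenitors, 12.95, 17.25 and 12.3 CPM in FOXP3lo progenitors, and 49.4, 89.6 and 80.6 CPM in conventional cells. No library of mature Tregs or FOXP3lo progenitors reached the lowest library of another gate. H1f5 fell in FOXP3lo progenitors against conventional cells (log2 fold change -2.37, SE 0.32, edgeR adjusted p = 8.75e-05) and in mature Tregs against conventional cells (log2 fold change -2.35, SE 0.32, edgeR adjusted p = 6.51e-05). Both calls held under all 24 alternative settings tried.

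H1f1 (741 exonic bases, chr13:23763666-23764406) had 52.4, 205 and 74.3 CPM in Bst2+ cells, 15.2, 12.9 and 14.8 CPM in mature Tregs, 40.8, 24.7 and 36.1 CPM in CD25+ progenitors, 10.7, 11.8 and 14.35 CPM in FOXP3lo progenitors, and 33.8, 43.6 and 51.3 CPM in conventional cells. Its order of gates was that of H1f5, and CD25+ progenitors overlapped with conventional cells. It fell in FOXP3lo progenitors against conventional cells by 1.80 on the log2 scale (SE 0.37, edgeR adjusted p = 0.00425) and in mature Tregs by 1.58 (SE 0.37, edgeR adjusted p = 0.00765), the second call being lost under limma-voom.

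H1f2 (1560 exonic bases, chr13:23738808-23740367) is the member with the highest level per exonic length, 164.5 CPM per kb over all libraries against 86.8 CPM per kb for H1f5, and is known to be made also as a polyadenylated message. It had 264, 469 and 292 CPM in Bst2+ cells, 204, 251 and 209 CPM in mature Tregs, 177, 169 and 203 CPM in CD25+ progenitors, 233, 243 and 241 CPM in FOXP3lo progenitors, and 212, 348 and 335 CPM in conventional cells. The 3 FOXP3lo libraries lay inside the range of the conventional libraries. The log2 fold change of H1f2 was -0.32 (SE 0.19, edgeR adjusted p = 0.44) in FOXP3lo progenitors and -0.43 (SE 0.19, edgeR adjusted p = 0.185) in mature Tregs, both against conventional cells. Without conventional replicate 40 the first value was -0.52 and without conventional replicate 42 it was -0.21, and neither was called.

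H1f3 and H1f4 lay between these genes. H1f3 had 122, 299 and 151 CPM in Bst2+ cells, 51.7, 56.6 and 46.2 CPM in mature Tregs, 92.6, 81.2 and 92.8 CPM in CD25+ progenitors, 55.4, 56.3 and 57.1 CPM in FOXP3lo progenitors, and 87.9, 160.5 and 155 CPM in conventional cells. It fell by 1.25 in FOXP3lo progenitors (SE 0.26, edgeR adjusted p = 0.00463) and by 1.38 in mature Tregs (SE 0.26, edgeR adjusted p = 0.00149) against conventional cells on the log2 scale. H1f4 averaged 232.5 ± 71.6 CPM in Bst2+ cells, 78.8 ± 13.1 CPM in mature Tregs, 89.9 ± 9.1 CPM in CD25+ progenitors, 84.3 ± 2.6 CPM in FOXP3lo progenitors and 137 ± 34.9 CPM in conventional cells (SD, n = 3 each). Its falls against conventional cells were 0.70 in FOXP3lo progenitors (SE 0.20, edgeR adjusted p = 0.0354) and 0.80 in mature Tregs (SE 0.20, edgeR adjusted p = 0.0123). The first H1f4 call was lost under limma-voom, with only the groups compared in the fit, and without any 1 of the FOXP3lo libraries or conventional replicate 42 or 43, and the second without mature Treg replicate 40 or 43 or conventional replicate 42 or 43.

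The make-up of the linker pool differed by gate. H1f2 held 33.8% of linker CPM in Bst2+ cells, 58.2% in mature Tregs, 40.6% in CD25+ progenitors and 58.9% in FOXP3lo progenitors, against 43.6% in conventional cells. H1f5 held 15.2%, 3.79%, 12.4%, 3.48% and 10.6% in the same gates. The H1f2 shares of single libraries were 56.8% to 59.1% in mature Tregs and 58.5% to 59.2% in FOXP3lo progenitors, above the 43.3% to 44.2% of conventional cells and the 37.9% to 42.1% of CD25+ progenitors. H1f6, the testis linker gene, had a total of 8 counts in all libraries.

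**Figure D2:**
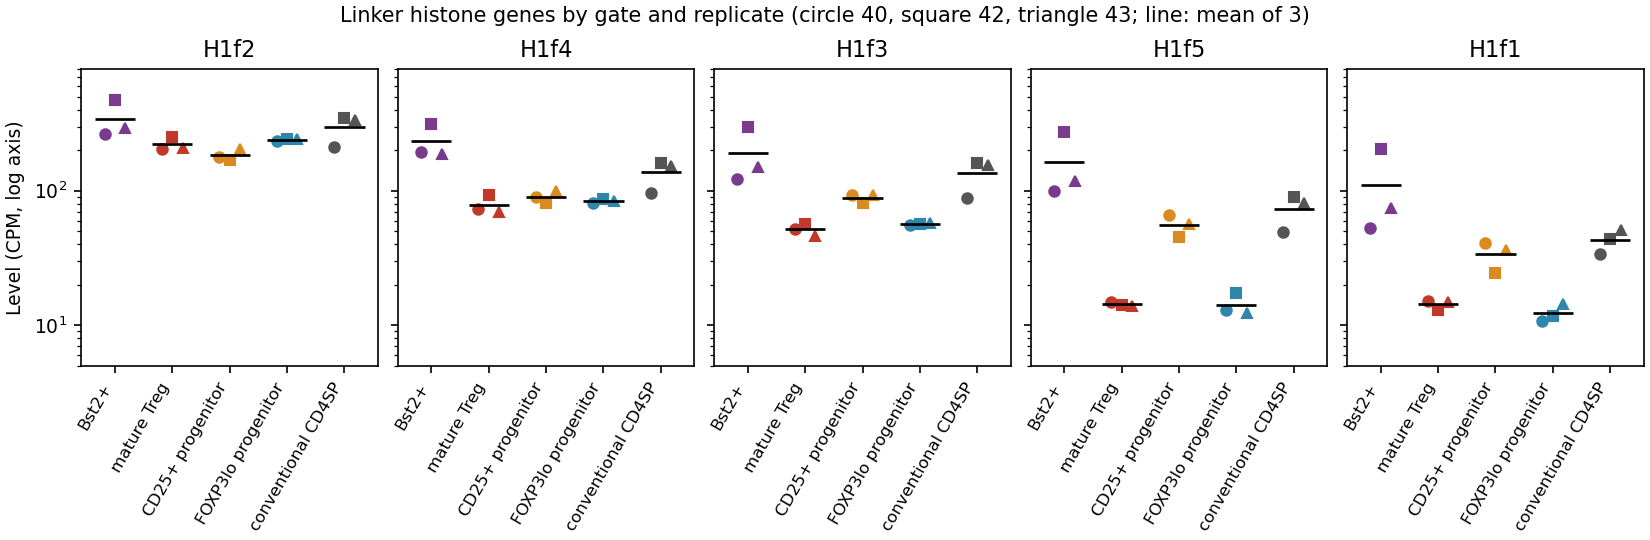
CPM of the 5 somatic linker histone genes (log axis) in each library, by gate, with the mean of 3 libraries as a line. H1f5 and H1f1 average 12.3 to 14.3 CPM in mature Tregs and FOXP3lo progenitors, well under the other 3 gates, while H1f2 spans 169 to 469 CPM over all libraries.

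FOXP3lo progenitors had less histone message than conventional cells in every class. Of 60 members tested, 18 fell and 0 rose. Over all 16069 genes tested, 8.71% were called, 3.83% lower and 4.88% higher. The median log2 fold change of the members was -1.48, and 42 members were not called. By class, the called falls were 4 of 5 H1 genes, 7 of 14 H2A genes, 4 of 17 H2B genes, 2 of 11 H3 genes and 1 of 13 H4 genes. Without the Bst2+ libraries 40 of 59 members fell and 0 rose, where 12.3% of genes were called lower. The count was 7 without conventional or FOXP3lo replicate 42, 9 without FOXP3lo replicate 40 or 43 or conventional replicate 43, and 30 without Bst2+ replicate 40.

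Mature Tregs also had less histone message than conventional cells. Of 60 members, 17 fell and 0 rose, with a median log2 fold change of -1.36; 5.73% of all genes were called lower and 6.45% higher. Both comparisons share the conventional libraries. Without the Bst2+ libraries 39 of 59 members fell and 0 rose, where 15.3% of genes were called lower. The count was 11 without mature Treg replicate 42, 10 without conventional replicate 43, 28 without Bst2+ replicate 40 and 26 without Bst2+ replicate 43.

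The H2A genes, whose products pair with H2B in the nucleosome, had the lowest class median in both comparisons. H2ac15 had 24.8, 58.8 and 32.2 CPM in Bst2+ cells, 7.4, 7.47 and 7.37 CPM in mature Tregs, 24.7, 12.4 and 13.9 CPM in CD25+ progenitors, 6.91, 7.93 and 5.92 CPM in FOXP3lo progenitors, and 22.6, 29.4 and 32.1 CPM in conventional cells. The highest library of mature Tregs and FOXP3lo progenitors was below the lowest library of the other gates. H2ac15 fell against conventional cells by 2.02 in FOXP3lo progenitors (SE 0.32, edgeR adjusted p = 0.000485) and by 1.92 in mature Tregs (SE 0.32, edgeR adjusted p = 5e-04) on the log2 scale, under all settings tried.

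H2ac20, on chromosome 3, had the highest mean level of the H2A genes. It averaged 50.5 ± 26 CPM in Bst2+ cells, 16.2 ± 2.5 CPM in mature Tregs, 25.4 ± 2.1 CPM in CD25+ progenitors, 17.7 ± 1.5 CPM in FOXP3lo progenitors and 38.8 ± 9.9 CPM in conventional cells (SD, n = 3 each). Its falls against conventional cells were 1.13 in FOXP3lo progenitors (SE 0.30, edgeR adjusted p = 0.0238) and 1.26 in mature Tregs (SE 0.30, edgeR adjusted p = 0.00896), the second call being lost without mature Treg replicate 42 or conventional replicate 43. H2ac4 averaged 46.8 ± 30.8 CPM in Bst2+ cells, 3.15 ± 0.92 CPM in mature Tregs, 15.3 ± 2.6 CPM in CD25+ progenitors, 5.41 ± 0.69 CPM in FOXP3lo progenitors and 19.6 ± 3.7 CPM in conventional cells (SD, n = 3 each). It fell by 2.63 in mature Tregs against conventional cells (SE 0.46, edgeR adjusted p = 0.000782; lost under limma-voom), and H2ac10 fell by 2.66 in the same comparison (SE 0.39, edgeR adjusted p = 0.000135). H2ac12 had 0.58, 0.14 and 0.45 CPM in mature Tregs, against 2.63, 5.13 and 6.42 CPM in conventional cells. Its fall of 3.58 (SE 1.00, edgeR adjusted p = 0.0243) was the largest of those called in mature Tregs and was lost without any 1 of the mature Treg libraries or conventional replicate 42 or 43.

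In FOXP3lo progenitors the largest called fall was that of H2ac11, at 0.75, 1.56 and 1.42 CPM against 5.05, 9.59 and 8.33 CPM in conventional cells (log2 fold change -2.61, SE 0.72, edgeR adjusted p = 0.0309). H3c3 (log2 fold change -2.49, SE 0.64, edgeR adjusted p = 0.0212), H3c8 (log2 fold change -2.49, SE 0.67, edgeR adjusted p = 0.0262) and the H2B gene H2bc11 (log2 fold change -2.48, SE 0.47, edgeR adjusted p = 0.00228) followed. The calls of H2ac11, H2ac20, H3c3 and H3c8 in this comparison were lost, all but that of H3c8 under limma-voom, and each without any 1 of the FOXP3lo libraries or conventional replicate 42 or 43. The call of H2bc11 held under all settings.

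Of the H2B genes, H2bc18, H2bc3 and H2bc8 had the highest mean levels. H2bc3 had 15.4, 41.8 and 8.84 CPM in Bst2+ cells, 4.33, 4.49 and 6.53 CPM in mature Tregs, 19.5, 11.8 and 18.5 CPM in CD25+ progenitors, 6.85, 4.465 and 4.49 CPM in FOXP3lo progenitors, and 17.2, 29.1 and 30 CPM in conventional cells. Every mature Treg and FOXP3lo library was below every other library. H2bc3 fell by 2.27 in FOXP3lo progenitors (SE 0.46, edgeR adjusted p = 0.00366) and by 2.31 in mature Tregs (SE 0.46, edgeR adjusted p = 0.00228) against conventional cells. H2bc18, on chromosome 3, averaged 9.88 ± 2.2 CPM in mature Tregs, 10.02 ± 1.1 CPM in FOXP3lo progenitors and 30.2 ± 10.7 CPM in conventional cells (SD, n = 3 each). It fell by 1.59 in FOXP3lo progenitors (SE 0.36, edgeR adjusted p = 0.00936; lost without replicate 42 of either gate) and by 1.61 in mature Tregs (SE 0.37, edgeR adjusted p = 0.00631; lost under limma-voom) against conventional cells. Its annotated span overlaps another gene on the same strand.

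H2bc21, which is also made with a poly(A) tail, had another pattern. It had 3.72, 7.9 and 7.21 CPM in Bst2+ cells, 5.91, 5.6 and 8.34 CPM in mature Tregs, 6.03, 4.19 and 5.02 CPM in CD25+ progenitors, 11.3, 9.82 and 11.6 CPM in FOXP3lo progenitors, and 10.1, 9.66 and 8.8 CPM in conventional cells. FOXP3lo progenitors and conventional cells overlapped and lay above the other gates. H2bc21 was the only member called lower in CD25+ progenitors than in FOXP3lo progenitors (log2 fold change -1.10, SE 0.36, edgeR adjusted p = 0.04). That call was lost with the replicate block (edgeR adjusted p = 0.0622), with no filter on low counts, and without any 1 library of mature Tregs, CD25+ progenitors, FOXP3lo progenitors or conventional cells, and held without the Bst2+ libraries (edgeR adjusted p = 0.00043). H2bc4, the other H2B member of this kind, was not called in any of the 6 pairs in the main fit. Without the Bst2+ libraries it fell in FOXP3lo progenitors against conventional cells (log2 fold change -0.999, SE 0.299, edgeR adjusted p = 0.0103). In that setting it also rose in CD25+ progenitors against FOXP3lo progenitors (log2 fold change 0.91, SE 0.299, edgeR adjusted p = 0.0132).

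Of 11 H3 genes tested, 2 fell in each of these comparisons. H3c6 averaged 24.4 ± 15 CPM in Bst2+ cells, 11.8 ± 2 CPM in mature Tregs, 18.1 ± 4.1 CPM in CD25+ progenitors, 9.58 ± 2.7 CPM in FOXP3lo progenitors and 21.4 ± 5.5 CPM in conventional cells (SD, n = 3 each). Its log2 fold change was -1.16 in FOXP3lo progenitors (SE 0.40, edgeR adjusted p = 0.0907) and -0.85 in mature Tregs (SE 0.40, edgeR adjusted p = 0.214) against conventional cells; both were called without the Bst2+ libraries (edgeR adjusted p = 5.79e-05 and 0.00205). H3c11 had 10.4, 6.13 and 12.85 CPM in Bst2+ cells, 0.83, 0.76 and 1.1 CPM in mature Tregs, 6.46, 5.55 and 5.24 CPM in CD25+ progenitors, 2.07, 3.405 and 2.3 CPM in FOXP3lo progenitors, and 7.92, 4.83 and 8.62 CPM in conventional cells. Mature Tregs lay below every other library, FOXP3lo progenitors included. H3c11 fell by 2.98 in mature Tregs against conventional cells (SE 0.48, edgeR adjusted p = 0.000369), under all settings.

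The H4 genes had the class median nearest 0 in both comparisons. Most H4 genes of the cluster are known to encode the same protein. H4c4, the H4 gene with the highest mean level, had 78.7, 89.2 and 74.6 CPM in Bst2+ cells, 36.5, 35.6 and 33.4 CPM in mature Tregs, 54.7, 43.4 and 54.5 CPM in CD25+ progenitors, 45.5, 27.7 and 39.7 CPM in FOXP3lo progenitors, and 49, 45.3 and 62.2 CPM in conventional cells. FOXP3lo progenitors overlapped with conventional cells, and mature Tregs did not. Its log2 fold change against conventional cells was -0.47 in FOXP3lo progenitors (SE 0.18, edgeR adjusted p = 0.124; -0.29 without FOXP3lo replicate 42) and -0.57 in mature Tregs (SE 0.18, edgeR adjusted p = 0.0445). The second call was lost under 10 of 24 settings, among them the replicate block (edgeR adjusted p = 0.0509) and leaving out any 1 of the mature Treg libraries or conventional replicate 40 or 43.

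**Figure D3:**
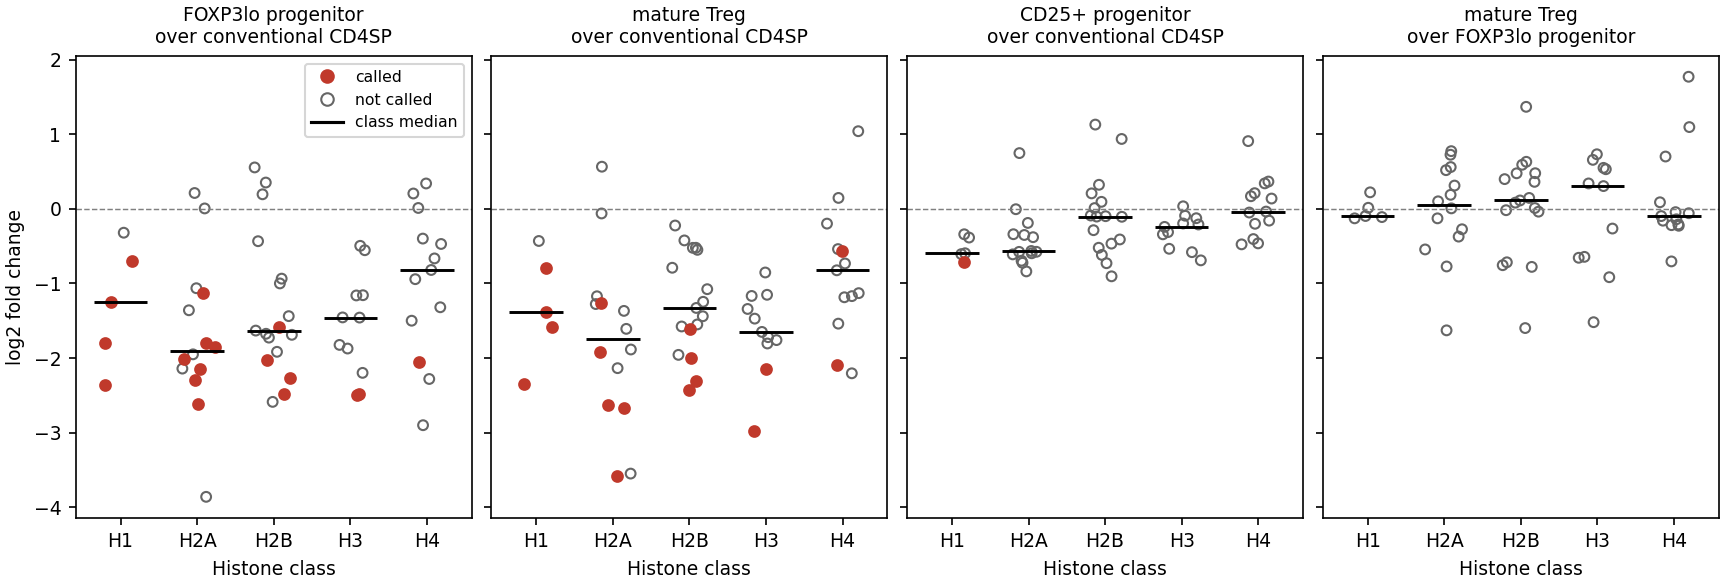
log2 fold change of each of the 60 tested members (points) in 4 comparisons, by histone class, with the class median as a line; filled points were called at an edgeR adjusted p under 0.05. In FOXP3lo progenitors over conventional cells the class medians run from -1.90 for H2A to -0.82 for H4, and in mature Tregs over FOXP3lo progenitors no point is filled.

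Members with long gene models differed less. In 12 members the annotated gene is more than 2 times the length of the RefSeq gene, so that reads beyond the short histone message are counted too. The median log2 fold change in FOXP3lo progenitors against conventional cells was -0.82 over the 11 tested members with long models and -1.69 over the other 49. In mature Tregs against conventional cells the medians were -0.80 and -1.47. H1f2, H1f3, H1f4, H4c4 and H4c14 are among the long models. By position, the medians in FOXP3lo progenitors were -1.69 and -1.80 in the 2 chromosome 13 runs (21 and 27 members tested), -0.69 over 8 members on chromosome 3 and 0.35 over 3 members on chromosome 11. The part of gene model length in these differences was not tested.

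Few members were called between CD25+ progenitors and conventional cells, though 46 of 60 log2 fold changes were below 0. The members summed to 876 ± 97.2 CPM and 1205 ± 282.5 CPM in these gates (SD, n = 3 each). Of 60 members, 1 fell and 0 rose, with a median log2 fold change of -0.30; 5.66% of all genes were called lower. The called member was H1f2, at 177, 169 and 203 CPM against 212, 348 and 335 CPM in conventional cells (log2 fold change -0.71, SE 0.19, edgeR adjusted p = 0.0216). The H1f2 call was lost with only the groups compared in the fit, and without CD25+ replicate 40 or 42 or conventional replicate 42 or 43. The count was 0 without CD25+ replicate 40 or 42 or conventional replicate 42 or 43, 2 without conventional replicate 40 or Bst2+ replicate 43, and 3 without Bst2+ replicate 40 or 42. Without the Bst2+ libraries 8 of 59 fell and 0 rose, where 14.3% of genes were called lower. The 8, named after their values were seen, were H2bc21, H2ac15, H1f2, H2bc3, H2ac20, H1f4, H2ac10 and H1f3, with log2 fold changes of -0.91 to -0.59. H1f5 had a log2 fold change of -0.39 (SE 0.30, edgeR adjusted p = 0.572), which was -0.61 without conventional replicate 40 and -0.20 without conventional replicate 42. H1f1 had one of -0.34 (SE 0.36, edgeR adjusted p = 0.728), which was -0.16 without CD25+ replicate 42 and -0.19 without conventional replicate 43.

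In the same comparison, called genes of the replication machinery were higher. Of 38 genes in a DNA replication list, 10 rose and 0 fell in CD25+ progenitors against conventional cells, with a median log2 fold change of 0.46; 5.98% of all genes were called higher. Mcm6, a subunit of the replicative helicase, averaged 183 ± 4.6 CPM in CD25+ progenitors and 88.9 ± 7.6 CPM in conventional cells (SD, n = 3 each; log2 fold change 1.04, SE 0.17, edgeR adjusted p = 0.000456). Uhrf1, which maintains DNA methylation at replication forks, averaged 76.9 ± 9.3 CPM and 38.1 ± 9.3 CPM in those gates (SD, n = 3 each; log2 fold change 1.01, SE 0.19, edgeR adjusted p = 0.00118). The list count was 6 without CD25+ replicate 40 or conventional replicate 43. It was 18 without the Bst2+ libraries, where 14.7% of all genes were called higher and 14.3% lower. Of 26 genes in a mitosis and G2 list, 1 fell, Kif23 (log2 fold change -1.52, SE 0.19, edgeR adjusted p = 3.09e-05), with 3 falling without Bst2+ replicate 40 or without all Bst2+ libraries. Over all genes, 5.66% were called lower in the main fit and 14.3% without all Bst2+ libraries.

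CD25+ progenitors had more histone message than FOXP3lo progenitors. Of 60 members, 15 rose and 1 fell, with a median log2 fold change of 1.09; 9.93% of all genes were called higher and 9.17% lower. H1f5 rose by 1.98 (SE 0.32, edgeR adjusted p = 0.000197) and H2bc11 by 2.38 (SE 0.47, edgeR adjusted p = 0.00141), both under all settings. H2bc11 had 6.65, 6.76 and 7.46 CPM in CD25+ progenitors against 1.96, 1.17 and 0.88 CPM in FOXP3lo progenitors. H3c8 rose by 2.29 (SE 0.66, edgeR adjusted p = 0.0212) and H2ac11 by 2.23 (SE 0.71, edgeR adjusted p = 0.0367); both calls were lost without CD25+ or FOXP3lo replicate 40 or 43, and that of H2ac11 also under limma-voom and without replicate 42 of either or conventional replicate 42 or 43. The largest called difference was that of H2ac22, at 1.85, 2.22 and 1.96 CPM in CD25+ progenitors against 0.17, 0.056 and 0 CPM in FOXP3lo progenitors (log2 fold change 4.61, SE 1.35, edgeR adjusted p = 0.0228), which was lost under limma-voom and without CD25+ replicate 42 or FOXP3lo replicate 42 or 43. The number called was 7 without CD25+ replicate 40 or any 1 of the FOXP3lo libraries, 6 without CD25+ replicate 43, and 26 without Bst2+ replicate 40. Without the Bst2+ libraries 35 rose and 1 fell of 59, where 19.9% of genes were called higher. In the main fit of this comparison 30 of the 38 DNA replication genes rose and 0 fell (median log2 fold change 1.415). Of the 26 mitosis and G2 genes, 18 rose and 0 fell (median 1.37). With 1 library left out these counts were 27 to 33 and 13 to 22.

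Mature Tregs had less histone message than CD25+ progenitors. Of 60 members, 13 fell and 0 rose, with a median log2 fold change of -1.13; 6.26% of all genes were called lower and 6.78% higher. H1f5 fell by 1.97 (SE 0.32, edgeR adjusted p = 0.000365) and H3c11 by 2.67 (SE 0.48, edgeR adjusted p = 0.000977), both under all settings. H2ac4 fell by 2.27 (SE 0.46, edgeR adjusted p = 0.00253) and H2ac10 by 2.07 (SE 0.38, edgeR adjusted p = 0.00129), both under all settings but limma-voom. H2ac22 fell by 4.30 (SE 1.36, edgeR adjusted p = 0.0465), a call lost under limma-voom, with the replicate block (edgeR adjusted p = 0.0512), without any 1 library of these gates or of FOXP3lo progenitors, or conventional replicate 42 or 43. The count was 6 without CD25+ replicate 40 or 43, 8 without CD25+ replicate 42, 7 without mature Treg replicate 40 or 43, 4 without mature Treg replicate 42, and 20 without any 1 of the Bst2+ libraries. Without all Bst2+ libraries 33 of 59 fell and 0 rose, where 16.8% of genes were called lower. In the main fit of this comparison 21 of the 38 DNA replication genes fell and 0 rose (median log2 fold change -0.75). Of the 26 mitosis and G2 genes, 17 fell and 0 rose (median -1.46). With 1 library left out these counts were 14 to 23 and 14 to 19.

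No member was called between mature Tregs and FOXP3lo progenitors. By edgeR's quasi-likelihood test 0 of 60 were called, 1 had an unadjusted p under 0.05, DESeq2 called 1 and limma-voom 0, while 4.72% of all genes were called. The median log2 fold change was 0.01. Without any 1 of the Bst2+ libraries 1 member was called, and without all of them 4 of 59 fell, and 0 rose, where 9.29% of genes were called lower and 9.37% higher. The 4, named after their values were seen, were H2bu2, H3c11, H2ac4 and H2bc21, with log2 fold changes of -1.61 to -0.71. H1f5 averaged 14.3 ± 0.52 CPM in mature Tregs and 14.1 ± 2.7 CPM in FOXP3lo progenitors (SD, n = 3 each).

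Replication genes did differ between these gates. In mature Tregs against FOXP3lo progenitors 8 of the 38 DNA replication genes rose and 0 fell, with a median log2 fold change of 0.49, where 2.51% of all genes were called higher. Uhrf1 averaged 24.1 ± 0.58 CPM in mature Tregs and 8.88 ± 1.2 CPM in FOXP3lo progenitors (SD, n = 3 each; log2 fold change 1.44, SE 0.20, edgeR adjusted p = 0.000255). Mcm5, another helicase subunit, rose by 0.94 (SE 0.14, edgeR adjusted p = 0.000447). The count was 4 without FOXP3lo replicate 40 or 42. It was 16 without the Bst2+ libraries, where 9.37% of all genes were called higher and 9.29% lower. In the mitosis and G2 list 0 of 26 were called by edgeR, 2 by DESeq2 and 0 by limma-voom, and the median was -0.02; 1 was called without mature Treg replicate 40 or any 1 of the Bst2+ libraries.

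Against conventional cells, 20 of the 38 DNA replication genes fell and 0 rose in FOXP3lo progenitors (median log2 fold change -0.76), and 6 fell and 1 rose in mature Tregs (median -0.27). Over all genes, 3.83% were called lower in FOXP3lo progenitors, and 5.73% lower and 6.45% higher in mature Tregs. Rrm2, a subunit of ribonucleotide reductase, fell by 2.16 (SE 0.27, edgeR adjusted p = 4.28e-05) and 2.01 (SE 0.27, edgeR adjusted p = 6.13e-05) in these comparisons. The first count was 13 without FOXP3lo replicate 40 or 42 or conventional replicate 43. The second, of 7 called, was 3 without conventional replicate 40 or 43 and 4 without mature Treg replicate 42. Without the Bst2+ libraries it was 16, where 15.1% of all genes were called higher and 15.3% lower. Of the 26 mitosis and G2 genes, 18 fell in each comparison, with medians of -1.55 and -1.57. The histone medians in these comparisons were -1.48 and -1.36. The comparisons share the conventional libraries, and the differences between the lists were not tested.

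**Figure D4:**
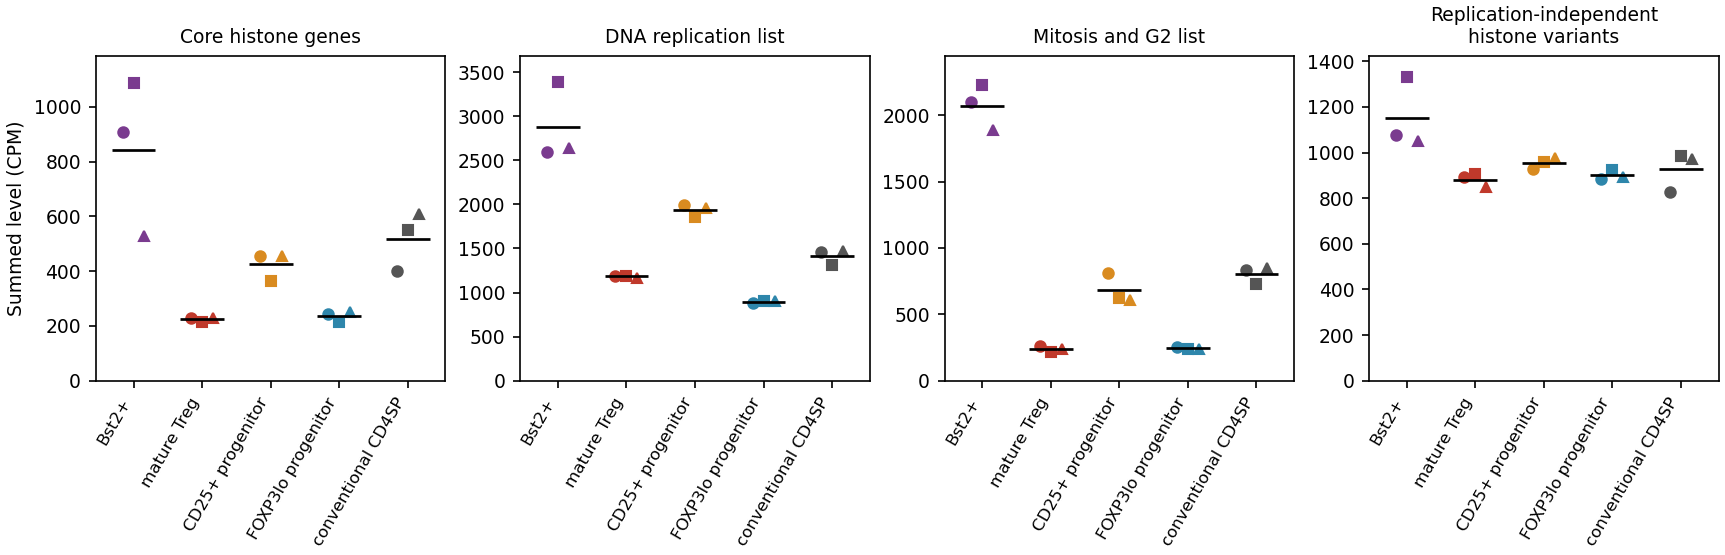
Summed CPM of the core histone genes, the DNA replication list (38 genes), the mitosis and G2 list (26 genes) and the replication-independent histone variants (11 genes) in each library, by gate, with the mean of 3 libraries as a line. DNA replication sums average 1939 CPM in CD25+ progenitors and 1413 CPM in conventional cells, while core histone sums average 424 and 519 CPM.

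The difference between gates with and without CD25 was also set against FOXP3. No member's CD25 difference was called as different between FOXP3+ gates (mature Tregs against FOXP3lo progenitors) and FOXP3- gates (CD25+ progenitors against conventional cells). By edgeR's interaction test 0 of 60 members were called, with 1 at an unadjusted p under 0.05, and 2.35% of all genes were called. Without the Bst2+ libraries 0 members were called, where 5.46% of genes were called higher and 5.39% lower. The median of the interaction was 0.40 on the log2 scale.

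Bst2+ cells had more histone message than mature Tregs, CD25+ progenitors and FOXP3lo progenitors, and were not tested against conventional cells. Against the mean of mature Tregs, CD25+ progenitors and FOXP3lo progenitors, 41 of 60 members rose and 1 fell, with a median log2 fold change of 1.89; 19.3% of all genes were called higher and 19.8% lower. H1f5 rose by 2.88 (SE 0.22, edgeR adjusted p = 5.6e-08), H1f1 by 2.61 (SE 0.27, edgeR adjusted p = 1.09e-06) and H1f2 by 0.68 (SE 0.15, edgeR adjusted p = 0.00183; 0.38 without Bst2+ replicate 42). H2bc7 had 11.8, 16.4 and 13.3 CPM in Bst2+ cells against 2.5, 0.62 and 0.91 CPM in mature Tregs, 1.48, 1.71 and 2.86 CPM in CD25+ progenitors, and 0.92, 0.95 and 1.15 CPM in FOXP3lo progenitors, with no overlap (log2 fold change 3.31, SE 0.41, edgeR adjusted p = 1.05e-05). H2bc4, with 37.8, 43.9 and 23.1 CPM in Bst2+ cells against 4.22 to 11 CPM in the 9 other libraries, rose by 2.42 (SE 0.27, edgeR adjusted p = 2.57e-06). In the same comparison 36 of the 38 DNA replication genes rose and 0 fell (median log2 fold change 1.33). All 26 mitosis and G2 genes rose (median 2.56).

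Single Bst2+ libraries set several values. H2ac22 had 80.1 CPM in Bst2+ replicate 40, 1.61 CPM in replicate 42 and 5.89 CPM in replicate 43, and its log2 fold change of 6.83 (SE 0.83, edgeR adjusted p = 8.04e-06) was 3.87 without replicate 40. H3c2 had 35, 15.8 and 7.9 CPM and rose by 3.6 (SE 0.58, edgeR adjusted p = 0.000119). H2bc12 had 8.4, 5.88 and 0.25 CPM and rose by 3.81 (SE 0.87, edgeR adjusted p = 0.00249). The rise of H2bc3 (1.53, SE 0.34, edgeR adjusted p = 0.0018) was 0.65 without Bst2+ replicate 42 and was no longer called. That of H4c12 (1.42, SE 0.37, edgeR adjusted p = 0.00577), which had 44 CPM in that library and 6.11 and 13.6 CPM in the other two, was 0.32 without it and was no longer called. The median coefficient of variation of the 60 members within a gate was 59.1% in Bst2+ cells and 26.6% to 35.1% in the other gates. H2bc3 averaged 22.01 CPM in Bst2+ cells and 25.4 CPM in conventional cells.

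H3c10 was the 1 member called lower in Bst2+ cells. It had 2 counts in the 3 Bst2+ libraries together and 230 counts in the 9 others, a depth-adjusted ratio of 29.7 (95% exact interval 8.12 to 247, counting error only) of the others over Bst2+ cells. Its levels were 0.095, 0 and 0.063 CPM in Bst2+ cells, against 2.16, 0.28 and 0.71 CPM in mature Tregs, 0.62, 2.87 and 2.91 CPM in CD25+ progenitors, and 1.73, 0.56 and 1.48 CPM in FOXP3lo progenitors. It was low in all 3 Bst2+ libraries, and the call (edgeR adjusted p = 0.00382) held under all settings.

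Markers of other cells moved with the Bst2+ gate, and several lists also with other gates. A list of 9 T cell markers summed to 3494 to 3736 CPM in Bst2+ cells, 2645 to 2730 CPM in mature Tregs, 2855 to 3041 CPM in CD25+ progenitors, 3475 to 3599 CPM in FOXP3lo progenitors and 3880 to 4312 CPM in conventional cells. Against conventional cells 9 of 9 fell in mature Tregs (median log2 fold change -0.64), 8 of 9 in CD25+ progenitors (-0.48) and 1 of 9 in FOXP3lo progenitors (-0.13). In mature Tregs against FOXP3lo progenitors 6 of 9 fell. Over all genes, 5.73%, 5.66%, 3.83% and 2.21% were called lower in these comparisons, in that order. Of the macrophage and dendritic cell list, 8 of 8 genes tested were called higher in Bst2+ cells, where 19.3% of all genes were called higher. Lyz2, C1qb and C1qc were at 0 in all mature Treg libraries. A list of 8 CD8 and double-positive thymocyte markers summed to 840 to 1437 CPM in Bst2+ cells, 56.2 to 62.1 CPM in mature Tregs, 261 to 298 CPM in CD25+ progenitors, 34.5 to 38.95 CPM in FOXP3lo progenitors and 76.2 to 122.5 CPM in conventional cells. Of these 8 genes, 5 rose in CD25+ progenitors and 4 fell in FOXP3lo progenitors against conventional cells, with median log2 fold changes of 1.71 and -1.68. Over all genes, 5.98% were called higher in the first comparison and 3.83% lower in the second. Rag1 from that list, a recombinase gene of double-positive cells, averaged 395 CPM in Bst2+ cells, 2.59 CPM in mature Tregs, 57.8 CPM in CD25+ progenitors, 2.24 CPM in FOXP3lo progenitors and 2.56 CPM in conventional cells. A list of 8 gamma-delta T cell markers summed to 182 to 359 CPM in Bst2+ cells, 41.8 to 49.1 CPM in CD25+ progenitors and 17.5 to 29.6 CPM in the other 3 gates. Against conventional cells, 4 rose and 0 fell in CD25+ progenitors, 1 rose and 1 fell in FOXP3lo progenitors, and 3 rose and 2 fell in mature Tregs. Over all genes, 5.98%, 4.88% and 6.45% were called higher and 5.66%, 3.83% and 5.73% lower in these comparisons. Plasmacytoid dendritic cell markers summed to 124.6 to 134 CPM in Bst2+ cells and 32.7 to 88 CPM in the others, and thymic stroma markers to 174.6 to 190.5 CPM and 120 to 302 CPM. Against conventional cells, the plasmacytoid list genes Irf8 and Tcf4 rose in mature Tregs and in CD25+ progenitors, and Irf8 also rose in FOXP3lo progenitors. The stroma list genes Epcam and Pdgfrb rose and Pecam1 fell in CD25+ progenitors, while Pecam1 rose in FOXP3lo progenitors. B cell markers summed to 7.35 to 47.7 CPM in Bst2+ cells and 0.58 to 3.13 CPM in the others, and erythroid markers to at most 1.24 CPM in any library. The part of such cells in the histone levels was not tested.

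**Figure D5:**
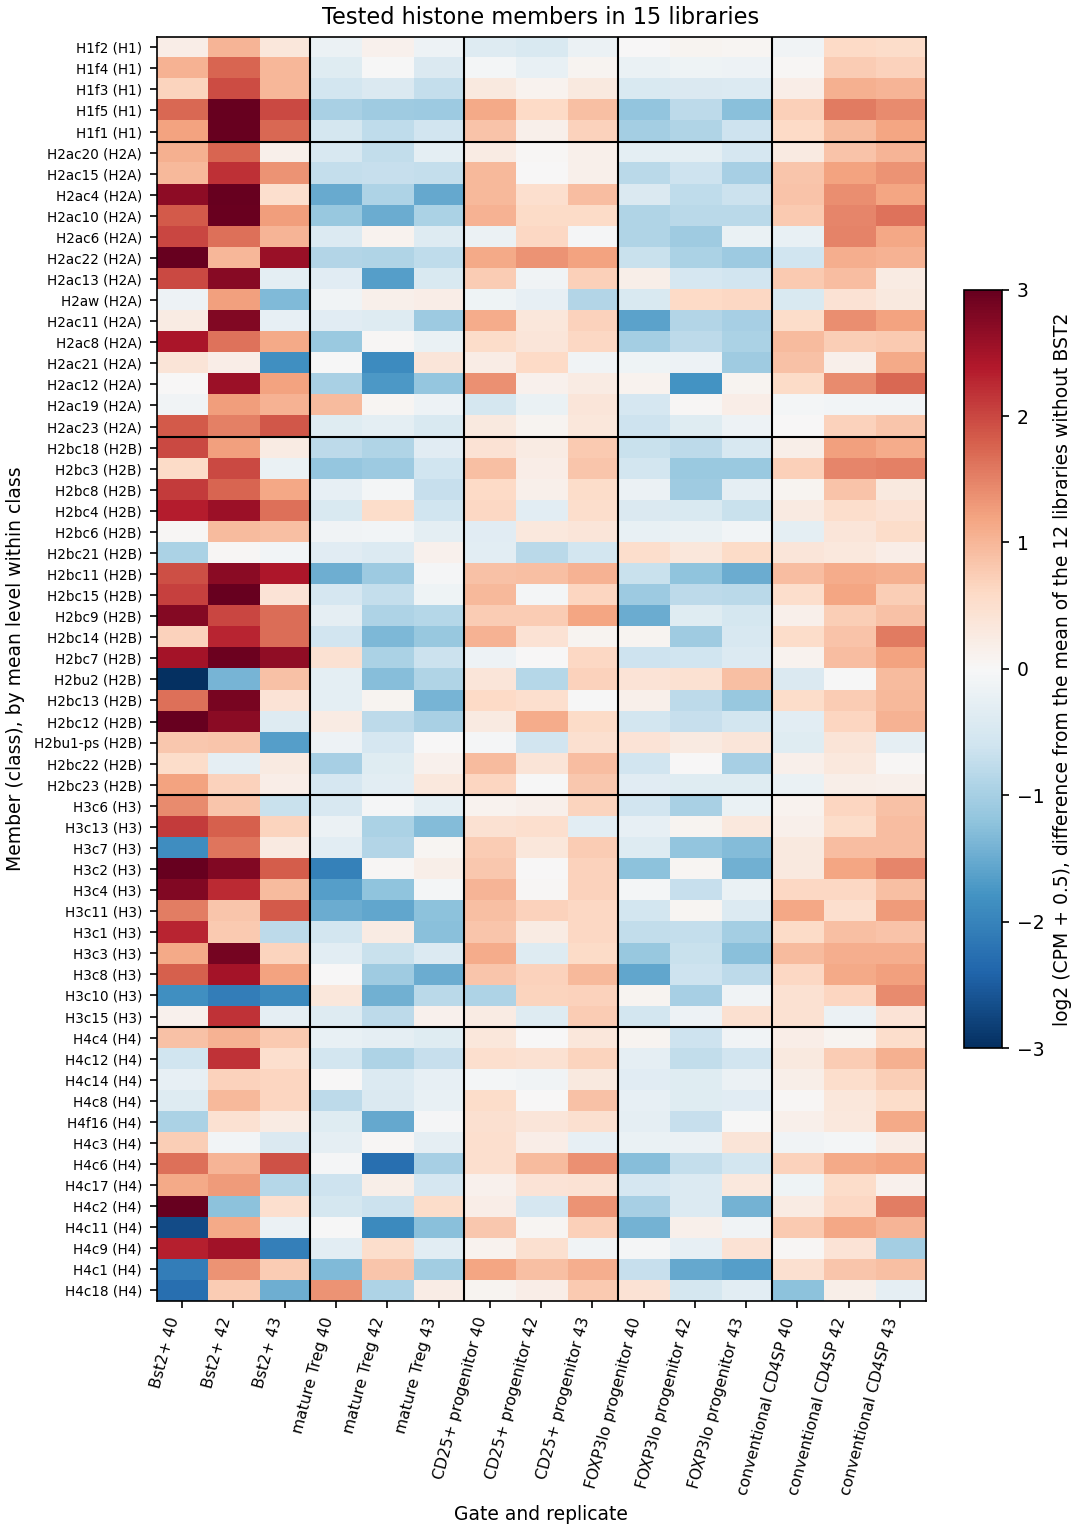
Heat map of the 60 tested members (rows, by class and mean level) in 15 libraries (columns, by gate and replicate); colour is log2 (CPM + 0.5) minus the member's mean over the 12 libraries without BST2, limited to 3 either way. Mature Treg and FOXP3lo columns are mostly blue, CD25+ and conventional columns mostly red, Bst2+ columns the most uneven, and H3c10 is blue in all 3 of them.

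Genes for histone transcription, processing and assembly were counted as lists of their own. In a list of 26 genes for histone gene transcription and message processing, 0 rose and 2 fell in FOXP3lo progenitors against conventional cells. The median log2 fold change was -0.11. Over all genes 3.83% were called lower and 4.88% higher, so that the share called was near the background. The number called was 0 to 7 when 1 library was left out. It was 9 without the Bst2+ libraries, where 12.8% of all genes were called higher and 12.3% lower. The 2 genes called in the main fit were Srrt and E2f1, the second an S-phase transcription factor (E2f1 log2 fold change -1.87, SE 0.55, edgeR adjusted p = 0.0415). The E2f1 call was lost under 12 of 24 settings, the replicate block among them (edgeR adjusted p = 0.0714). Slbp averaged 90.7 ± 20.7 CPM in Bst2+ cells, 35.1 ± 1.2 CPM in mature Tregs, 44.3 ± 1.9 CPM in CD25+ progenitors, 28.9 ± 1 CPM in FOXP3lo progenitors and 36.1 ± 0.8 CPM in conventional cells (SD, n = 3 each). Slbp rose in CD25+ progenitors against FOXP3lo progenitors by 0.62 (SE 0.15, edgeR adjusted p = 0.00603) and in Bst2+ cells against the 3 other gates by 1.36 (SE 0.11, edgeR adjusted p = 1.12e-07). Casp8ap2, which takes part in histone gene transcription, rose by 0.51 in that comparison (SE 0.08, edgeR adjusted p = 6.51e-05). Of the 26 genes, 9 rose and 6 fell in Bst2+ cells, where 19.3% of all genes were called higher and 19.8% lower. In CD25+ against FOXP3lo progenitors 7 rose and 2 fell, where 9.93% of all genes were called higher and 9.17% lower. Nfyb, a subunit of the CCAAT-binding factor NF-Y, was the only gene of the list called in CD25+ progenitors against conventional cells (log2 fold change 0.79, SE 0.10, edgeR adjusted p = 2.48e-05). Without the Bst2+ libraries 11 were called, where 14.7% of all genes were called higher and 14.3% lower.

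Among 21 histone chaperones and assembly factors, 8 rose and 2 fell in CD25+ progenitors against conventional cells, with a median log2 fold change of 0.33, against 5.98% of all genes called higher and 5.66% lower. Nap1l1, a chaperone of H2A and H2B, averaged 346 ± 2.6 CPM in CD25+ progenitors and 178 ± 2.8 CPM in conventional cells (SD, n = 3 each; log2 fold change 0.96, SE 0.10, edgeR adjusted p = 5.69e-06). Anp32e, which removes H2A.Z, rose by 0.83 (SE 0.10, edgeR adjusted p = 2.18e-05). The number called was 5 without any 1 of conventional replicates 40, 42 and 43 or CD25+ replicate 40 or 43. In FOXP3lo progenitors against conventional cells 4 fell and 1 rose, where 3.83% of all genes were called lower and 4.88% higher. The number called was 3 without conventional replicate 43, and 8 and 9 without Bst2+ replicates 42 and 43. It was 12 without all Bst2+ libraries, where 12.8% of all genes were called higher and 12.3% lower. Chaf1a, a subunit of the factor that loads histones onto new DNA, fell by 1.35 in the main fit of this comparison (SE 0.29, edgeR adjusted p = 0.00589), a call lost under limma-voom.

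The genes listed as replication-independent histone variants differed less in summed level. CD25+ progenitors lay above mature Tregs and FOXP3lo progenitors, and conventional cells overlapped with all 3. The 11 genes summed to 1153 ± 154 CPM in Bst2+ cells, 882 ± 30.1 CPM in mature Tregs, 953 ± 24.2 CPM in CD25+ progenitors, 900 ± 19.7 CPM in FOXP3lo progenitors and 927 ± 86.7 CPM in conventional cells (SD, n = 3 each). Within the list, H2az1, which encodes H2A.Z, averaged 83.1 ± 7.5 CPM in mature Tregs, 40.6 ± 0.63 CPM in FOXP3lo progenitors and 46.8 ± 6.1 CPM in conventional cells (SD, n = 3 each). It rose in mature Tregs against conventional cells by 0.83 (SE 0.17, edgeR adjusted p = 0.00276) and against FOXP3lo progenitors by 1.03 (SE 0.17, edgeR adjusted p = 0.00125). H2ax, the variant that marks DNA breaks when phosphorylated, fell by 1.06 in FOXP3lo progenitors (SE 0.25, edgeR adjusted p = 0.0117; lost without FOXP3lo replicate 40 or 43) and by 1.13 in mature Tregs (SE 0.25, edgeR adjusted p = 0.00554) against conventional cells.

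Of the 60 tested members, 26 were called in at least 1 of the 6 pairs of gates without BST2 and 34 in none. Single pairs called 4.72% to 19.1% of all genes. The share of all genes called in at least 1 pair is not given here, so the 26 cannot be set against a background. The 10 members below the filter on low counts were H1f6, H2ac1, H2ac5-ps, H2ac7, H2ac14, H2ac18, H2ac24, H2bc1, H4bc24 and H3c14, and the highest of them had 124 counts over all libraries. The testis members H1f6, H2ac1 and H2bc1 had 8, 1 and 4 counts. H3c14 had no count in any library. For reads assigned to it alone, this allows up to 0.121 to 0.287 CPM by library (3 counts, counting error only), and it sets no limit on the level of the gene. Reads that match several near-identical histone genes were not counted, so values of single members are uncertain.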

How the data were processed

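Counts per gene were deposited by the authors as raw read-pair counts; per the file headers they were made with featureCounts 1.6.2 against Ensembl 97 (GRCm38), reverse strand, both ends mapped, mapping quality of at least 10, without multi-mapping reads. The submitters' processing notes name Trimmomatic 0.33, HISAT2 2.1.0 and featureCounts 1.4.6. Genes were named by position against RefSeq: 71 entries followed the naming rule and 70 had a row, 56 matched by overlap and 14 otherwise. Library totals ranged from 10816064 to 23758157.

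CPM used TMM factors. The main test was edgeR 4.0.16 (R 4.3.3) quasi-likelihood, robust, on 15 libraries with 5 gate means, after filterByExpr (16069 genes), with Benjamini-Hochberg adjustment over all of them and a threshold of 0.05; 8 contrasts were tested. Each SE given with an edgeR result is the size of the log2 fold change divided by the square root of its F statistic. It restates the test and is not a separate estimate of error. Scripts were tested on simulated data. Alternatives were other scalings and filters, DESeq2 1.42.0, limma 3.58.1 (voom), a replicate block, only the groups compared, and leaving out libraries. Named members came from the 3 with the highest mean CPM per class and up to 4 highest and lowest called per comparison. The polyadenylated and testis members were added. Of the first group, H3c13 and H3c7 are not described above, and H2bc8, H4c12 and H4c14 only in part. In FOXP3lo progenitors against conventional cells the log2 fold changes of these members, in this order, were -0.56, -1.82, -0.94, -1.32 and -0.82. None was called there or in mature Tregs against conventional cells. Without the Bst2+ libraries all were called lower in mature Tregs, and all but H3c13 in FOXP3lo progenitors. Members and lists were chosen with earlier results of these data known.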

Additional observations from a re-analysis of the deposited data

How the results depend on the processing

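The number of members called depended most on the Bst2+ libraries and on single libraries of the gates compared. In CD25+ progenitors against conventional cells the count of 1 was 2 with upper quartile factors, 3 with no filter on low counts, 2 with a filter of 2 CPM in 3 libraries, 2 with the replicate block, 8 without the Bst2+ libraries, 3 by DESeq2, 5 with only the groups compared, and 0 to 3 when 1 library was left out. In FOXP3lo progenitors against conventional cells the count of 18 was 40 without the Bst2+ libraries, 31 by DESeq2, 41 with only the groups compared, and 7 to 30 with 1 library left out; in mature Tregs against conventional cells the count of 17 was 39, 26, 38 and 10 to 28 under the same settings. In CD25+ against FOXP3lo progenitors the count of 16 was 36 without the Bst2+ libraries, 10 by limma-voom, 38 with only the groups compared, and 6 to 26 with 1 library left out. In mature Tregs against CD25+ progenitors the count of 13 was 33 without the Bst2+ libraries, 20 by DESeq2, 4 by limma-voom, 31 with only the groups compared, and 4 to 20 with 1 library left out. In mature Tregs against FOXP3lo progenitors the count of 0 was 4 without the Bst2+ libraries, 1 by DESeq2, 2 with only the groups compared, and 0 to 1 with 1 library left out. In Bst2+ cells the count of 42 was 36 to 45 with 1 library left out. The interaction count of 0 was 1 with no filter and 0 to 0 with 1 library left out.

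The FOXP3lo summed CPM was 621 with raw library totals; with 1 library left out, the mean sums were 1497 to 2145 CPM in Bst2+ cells, 585 to 616 CPM in mature Tregs, 843 to 932 CPM in CD25+ progenitors, 634 to 648 CPM in FOXP3lo progenitors and 1117 to 1368 CPM in conventional cells. Of 2447 alternative values for 103 single genes and comparisons, 2241 kept their direction and side of the threshold, 193 lost the call, 13 gained it and 0 reversed. The cause of these moves was not tested.

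The labels do not say that a replicate number marks the same animal across gates. Deviations of libraries with the same number correlated at -0.016 to 0.0423 (mean 0.0107, 30 pairs) and those with other numbers at -0.0444 to 0.0349 (mean -0.0053, 60 pairs). As a hint from the data, 11 of 15 libraries had their closest library of another gate under their own number. The same held for 32 of 60 pairs of a library and a gate. The fit without the block was kept because no pair passed 0.1, an arbitrary limit that could miss a small shared effect. Whether libraries with the same number share an effect was not tested. With the replicate as a block, the counts of called members against conventional cells were 15 for mature Tregs, 2 for CD25+ progenitors and 16 for FOXP3lo progenitors. They were 14 in CD25+ against FOXP3lo progenitors, 11 in mature Tregs against CD25+ progenitors, 0 in mature Tregs against FOXP3lo progenitors, 39 in Bst2+ cells and 0 for the interaction.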
